A study of Mus musculus with 5 samples.

Results

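The genes described here code for the constitutive proteasome, its assembly factors and its activators. They were taken from the count table by symbol, as protein-coding genes named *Psma*, *Psmb*, *Psmc*, *Psmd*, *Psme*, *Psmf* or *Psmg* with a digit, together with *Pomp* and *Adrm1* and without the immunoproteasome subunits *Psmb8*, *Psmb9* and *Psmb10*. The rule gave 49 of the 53700 genes in the table. It also took *Psmc3ip*, a recombination factor that is not a proteasome subunit, which was kept and is given on its own. Of the 49 members, 47 had enough reads for an adjusted p. The other two were *Psma8* and *Psmb11*, which code for the alpha and beta subunits of the testis and thymus proteasomes and had between 0.961 and 9.61 normalized counts in every library.

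Ribosome-bound mRNA was purified from mouse midbrain by BAC-TRAP, in which an EGFP-tagged ribosomal protein (L10a) is switched on by Cre recombinase and pulled down with an antibody against the tag. All mice were C57BL/6, carried the L10a tag and received AAV:THCre, a virus in which the tyrosine hydroxylase promoter drives Cre, so the tag was directed to dopaminergic neurons. L10a;Esrrg WT mice kept an intact *Esrrg*, the gene for the nuclear receptor ERRγ, while in L10a;Esrrg Flox mice the same Cre removed exon 2 of *Esrrg*. The mice were 4 months old and tissue was taken 1 month after deletion. There were 3 Esrrg WT libraries (WT2, WT3 and WT4, after their replicate numbers) and 2 Esrrg Flox libraries (Flox2 and Flox4), each from pooled animals. Apart from the pooling, the labels do not say what separates replicates, so each p below measures the spread between these 5 libraries.

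The proteasome degrades proteins that carry chains of ubiquitin. Its 20S core is a barrel with outer rings of alpha subunits, which gate the entrance, and inner rings of beta subunits, which hold the cutting sites. *Psmb5*, *Psmb6* and *Psmb7* code for the subunits with chymotrypsin-like, caspase-like and trypsin-like activity. The 19S cap has a base of ATPases that unfold the substrate and a lid that removes its ubiquitin. Dedicated chaperones build both particles, and a transcription factor, NRF1 (gene *Nfe2l1*), acts on proteasome genes through antioxidant response elements when proteasome activity is short. Neurons depend on this machinery for protein turnover, and proteasome function has long been studied in dopaminergic neurons because of the protein inclusions of Parkinson's disease.

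Of the 47 members tested, 6 were higher and 1 was lower in Esrrg Flox at an adjusted p under 0.05 (DESeq2). Those that rose were *Psmg3*, *Psmd13*, *Psme2*, *Pomp*, *Psma4* and *Psmd9*, by 1.32- to 1.64-fold, and the 1 that fell was *Psmb7*, to 0.704 of its WT level. These 7 were 14.9% of the members, beside 8.25% of the 15724 genes tested in either direction, 4.2% higher and 4.05% lower. The share past the test was larger among abundant genes. For genes with a mean of at least 1000 normalized counts it was 15.2% (347 higher and 354 lower of 4612), beside 6 of the 39 members that abundant. Only *Psmg3* also reached the fold change of 1.5 that the study used for a call, a threshold that 3.18% of all genes met in either direction and 1.77% upward. The 7 calls depended on single libraries, and the number of calls among all genes also changed. With DESeq2 there were 0 calls without WT2 (8 at an unadjusted p under 0.05), beside 343 of 15910 genes. There was 1 without WT3, beside 641 of 15847 genes, and 6 without WT4 (4 of them among the 7), beside 868 of 9796. With 1 Flox library left out, the other is assumed to vary like the WT libraries, so effect sizes are given here. For the 6 members that rose, log2 fold changes without Flox4 ran from 0.18 for *Psme2* to 0.30 for *Psma4*. Without Flox2 they ran from 0.52 for *Psma4* to 1.04 for *Psmg3*. The edgeR quasi-likelihood test on all genes called the same 7, and restricted to genes that reached 10 counts in 2 or more libraries it called 0 of the members (17 unadjusted) and 275 genes in all. Among all genes the first of these edgeR tests called 6.12%, with 3.42% higher and 2.7% lower.

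The promoters of 4 members that rose are shown because each held a motif that the text counts below. They come from the RefSeq promoter table (build GRCm38.p6), which covers 250 bases before to 50 bases after each annotated start, and the stretches printed run from 120 bases before to 30 bases after it. Capitals in the first 3 mark matches to CCGGAAG or its reverse complement, the core of the site read by ETS factors. Capitals in the last mark a match to TGACNNNGC, the antioxidant response element.
Pomp, chr5:147860508-147860657, plus strand: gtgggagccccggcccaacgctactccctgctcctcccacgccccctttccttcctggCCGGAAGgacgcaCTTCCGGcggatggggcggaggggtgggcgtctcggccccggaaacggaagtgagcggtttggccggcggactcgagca
Psmd13, chr7:140882274-140882423, plus strand: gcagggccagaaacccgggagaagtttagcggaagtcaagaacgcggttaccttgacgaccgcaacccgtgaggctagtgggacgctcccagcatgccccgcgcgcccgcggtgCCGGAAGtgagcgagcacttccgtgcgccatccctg
Psmg3, chr5:139826865-139827014, minus strand: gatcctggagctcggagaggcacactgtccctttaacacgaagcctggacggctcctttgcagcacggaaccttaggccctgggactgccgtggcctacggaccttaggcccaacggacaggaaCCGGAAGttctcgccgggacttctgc
Psmd9, chr5:123228070-123228219, plus strand: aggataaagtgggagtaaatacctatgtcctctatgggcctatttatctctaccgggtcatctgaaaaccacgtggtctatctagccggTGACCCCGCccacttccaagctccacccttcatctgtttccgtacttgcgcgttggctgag

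The table had promoters for 41 of the 49 members, and both strands of each window were searched for 4 motifs, none of which lies within another. The ERR response element TNAAGGTCA was found in 1 member, *Psmc3ip*, and in 1.21% of 16500 protein-coding genes. The antioxidant response element was found in 7 members (17.1%), namely *Adrm1*, *Psmb5*, *Psmb6*, *Psmc6*, *Psmd12*, *Psmd9* and *Psme4*, beside 15% of all genes. The CCAAT box was found in 15 members (36.6%), beside 42.1% of all genes. The ETS core, which was added after the sequences were seen, was found in 17 members (41.5%) beside 13.4% of all genes. *Pomp*, *Psmd13* and *Psmg3* were among those 17, and of the 6 members that rose *Psmd9* alone held an antioxidant response element in this window. The promoter of *Psmb7* was not analysed here. A match describes letters in the window and does not show that a factor binds there.

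Levels of the members were compared in Esrrg WT as normalized counts per kb of the representative transcript. *Psmb4*, a structural beta subunit, had the highest level at 6885 ± 368 (SD, n = 3), followed by *Psmc5*, a base ATPase, at 6782 ± 106, and *Psmb6*, the caspase-like subunit, at 6721 ± 327. The spreads of these 3 levels overlapped, although *Psmb6* was below *Psmb4* in each WT library. The 20S assembly factor *Pomp* was next at 4513 ± 237, and the alpha subunit *Psma7* followed at 4337 ± 293. This order depended on the length used: per kb of all annotated exons, *Psmc5* had 6402, *Psmb4* 4175 and *Psmb6* 2865, ranks 1, 2 and 4, and *Pomp* went from rank 4 to rank 13 (1366). The other assembly factors were far lower, from 232 ± 7.78 for *Psmg3* to 626 ± 9.80 for *Psmg4*. Among beta subunits *Psmb7* had the lowest WT level, 1841 ± 382, and it was below *Psmb2* (2332 ± 326) in each of the 3 WT libraries, at 1715 beside 2183, 1538 beside 2107 and 2271 beside 2706. The PA200 activator *Psme4* was the lowest subunit or activator tested, at 41.2 ± 3.25, beside 41.0 ± 7.17 for *Psmc3ip*.

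**Figure D1:**
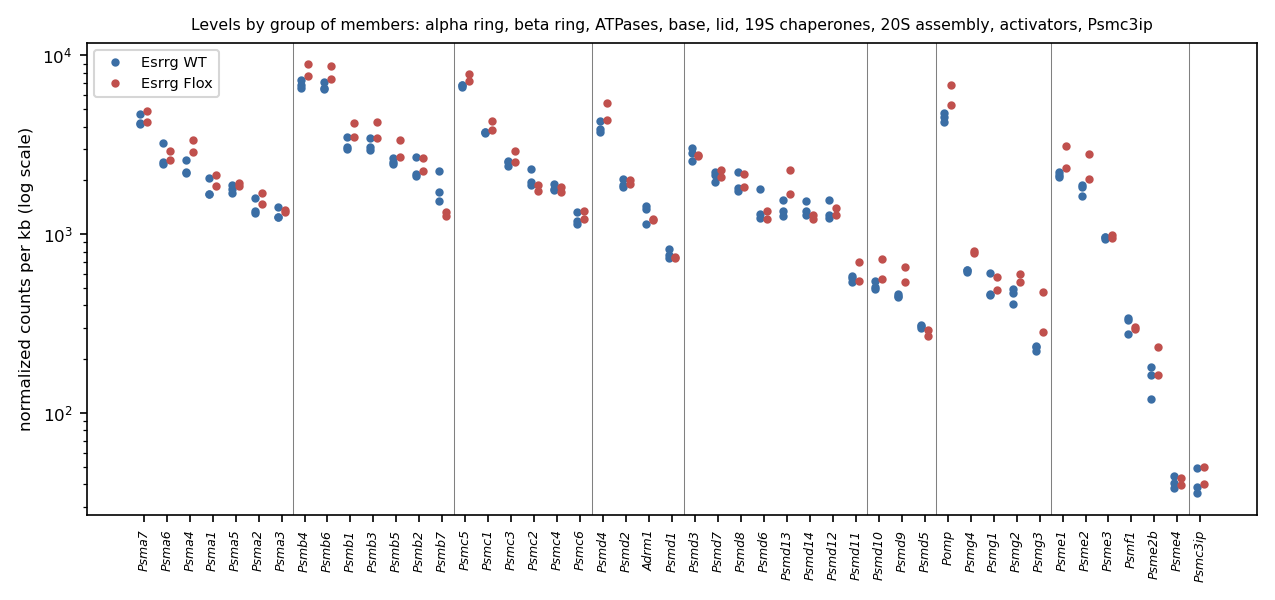
Normalized counts per kb of transcript (log axis) of each member above 10 in WT, grouped by role and ordered by WT mean within a group, with 1 point per library (blue, 3 Esrrg WT; red, 2 Esrrg Flox). *Psmb4*, *Psmc5* and *Psmb6* sit at the top between 6721 and 6885 in WT, and the assembly factors other than *Pomp* lie between 232 and 626.

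In the alpha ring, 1 of 7 genes rose and none fell, and the median log2 fold change was 0.08 (range 0.01 to 0.41). *Psma4* (ENSMUSG00000032301.14, chromosome 9) had 2582, 2547 and 3039 normalized counts in WT2, WT3 and WT4, and 3364 and 3895 in Flox2 and Flox4. Both Flox libraries lay above every WT library. The log2 fold change was 0.41 (SE 0.12, DESeq2 adjusted p = 0.0174). The alpha subunit genes otherwise overlapped between groups. The gene with the smallest change was *Psma6*, with 2628, 2568 and 3391 in WT and 2702 and 3055 in Flox, a log2 fold change of 0.01 (95% interval -0.27 to 0.28). *Psma4* made up 12.6%, 12.4% and 12.6% of the normalized counts of the 7 alpha genes in WT and 14.9% and 15.5% in Flox. An exact permutation test of 3 against 2 libraries cannot go below p = 0.1 (two-sided), so none was run on such shares.

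The beta ring held the only member that fell. *Psmb7* (ENSMUSG00000026750.7, chromosome 2), the trypsin-like subunit, had 1989, 1784 and 2634 normalized counts in WT2, WT3 and WT4, and 1472 and 1537 in Flox2 and Flox4. The Flox libraries were close to each other and below every WT library, while WT4 stood well above the other WT libraries. The log2 fold change was -0.51 (SE 0.16, DESeq2 adjusted p = 0.0260). The value was -0.54 without Flox4 (adjusted p = 0.249), -0.48 without Flox2 (adjusted p = 0.108), -0.33 without WT4 (0.0782), -0.56 without WT2 (0.0877) and -0.62 without WT3 (0.0086), all from DESeq2.

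The other 6 beta genes had log2 fold changes above 0, from 0.08 for *Psmb2* to 0.28 for *Psmb3*, and none passed the test. With the trend in transcript length removed they were smaller, from -0.11 for *Psmb2* to 0.21 for *Psmb1*, with 0.09 for *Psmb3*, 0.07 for *Psmb5* and 0.06 for *Psmb6*. For 5 of them, *Psmb1*, *Psmb3*, *Psmb4*, *Psmb5* and *Psmb6*, the unadjusted p was under 0.05 (DESeq2) and both Flox libraries exceeded every WT library. Of all genes, 9.74% were higher at that unadjusted p, and 19.9% had both Flox libraries above every WT library. Without Flox4 the log2 fold changes of these 5 ran from 0.08 for *Psmb5* to 0.15 for *Psmb4*. *Psmb3*, a structural subunit, had 2339.9, 2251 and 2636 normalized counts in WT and 2637 and 3234 in Flox (DESeq2 adjusted p = 0.166), so Flox2 only just exceeded WT4. *Psmb5*, the chymotrypsin-like subunit, had 2217, 2277 and 2399 in WT and 2437 and 3012 in Flox, a log2 fold change of 0.25 (SE 0.12, DESeq2 adjusted p = 0.229). *Psmb6*, the caspase-like subunit, had 5226, 5200.2 and 5664 in WT and 5893 and 6924 in Flox, a log2 fold change of 0.26 (SE 0.11, DESeq2 adjusted p = 0.140). The catalytic subunits thus had unequal values within the ring. *Psmb7* made up 7.34%, 6.78% and 8.67% of the normalized counts of the 7 beta genes in WT and 4.98% and 4.40% in Flox. For *Psmb5* the share was 8.24% ± 0.380 (SD) over the 3 WT libraries and 8.43% ± 0.274 over the Flox libraries, and that of *Psmb6* was 19.2% ± 0.561 and 19.9% ± 0.0646, each difference being near or within the spread between libraries.

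**Figure D2:**
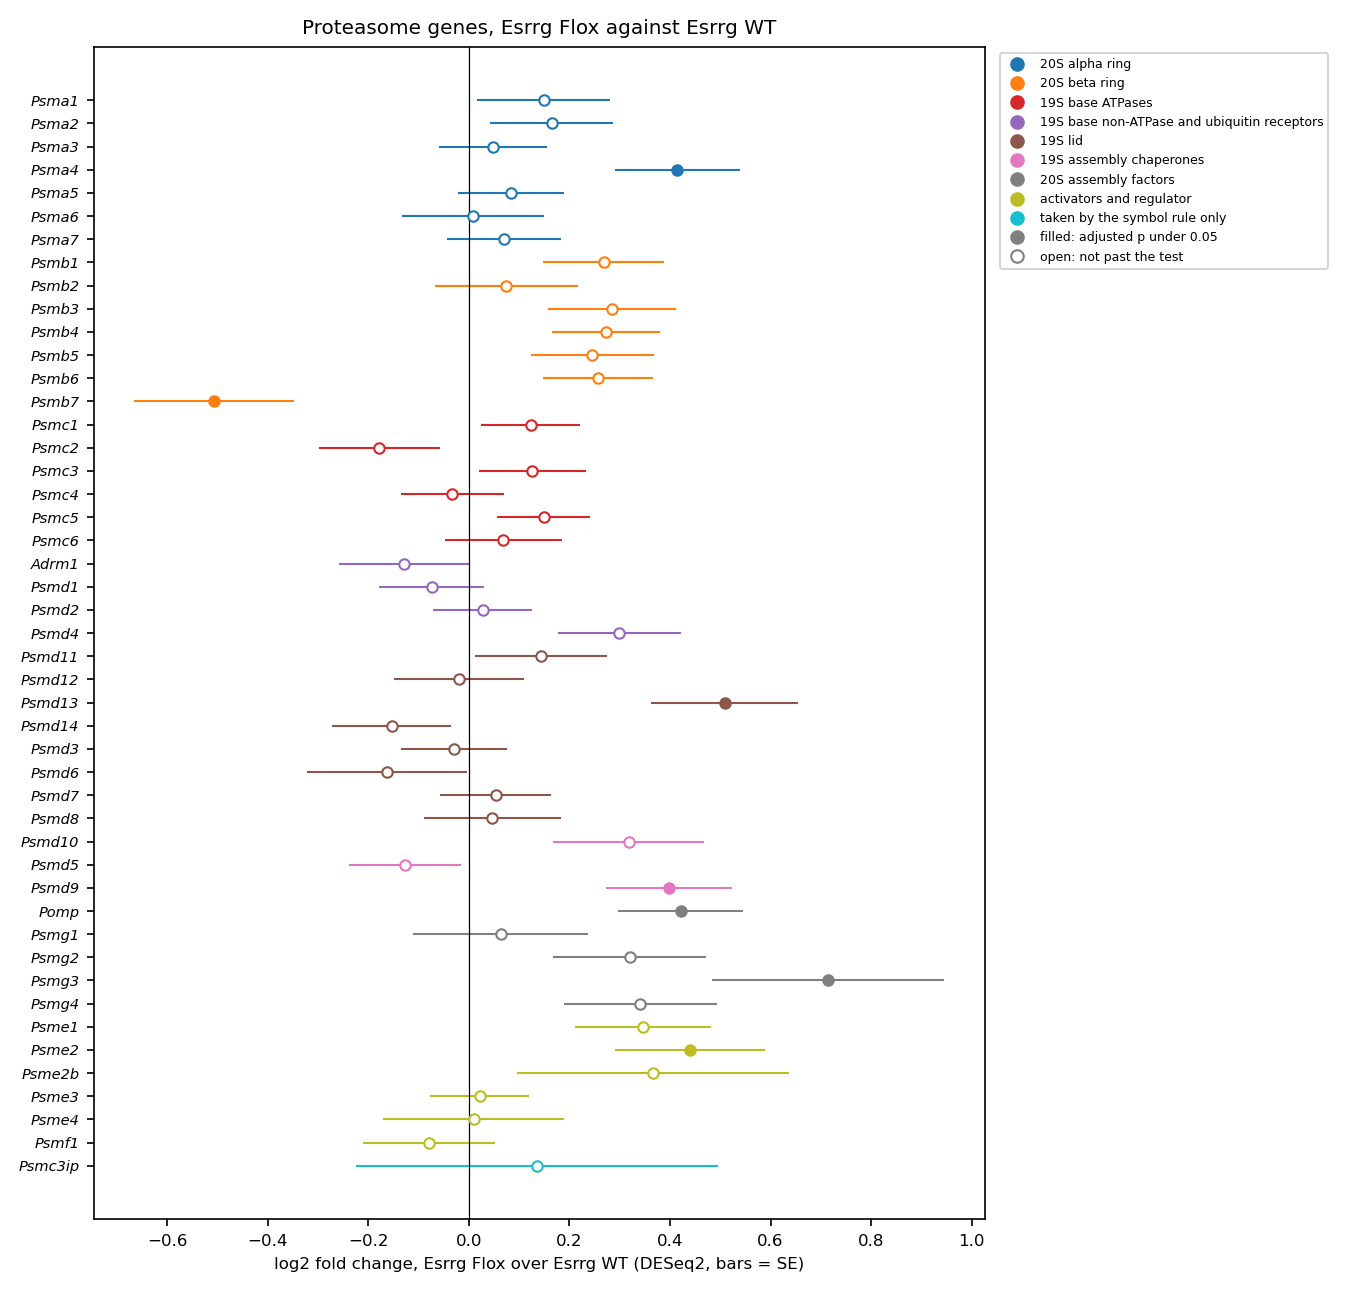
Log2 fold change of Esrrg Flox over Esrrg WT (x axis, DESeq2, bars are SE) for the 47 members with an adjusted p, coloured by role, with filled points for an adjusted p under 0.05. *Psmb7* lies at -0.51 below the other 6 beta genes, and the increases past the test run from 0.40 for *Psmd9* to 0.71 for *Psmg3*.

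In the 19S base, none of the 6 ATPase genes and none of the 4 other genes passed the DESeq2 test (0 and 1 at an unadjusted p under 0.05). The ATPases had a median log2 fold change of 0.10 and ran from -0.18 for *Psmc2* to 0.15 for *Psmc5*. *Psmc2* had 3484, 3364 and 4126 normalized counts in WT and 3123 and 3343 in Flox, and its 95% interval was -0.41 to 0.06. *Psmc5* had 8997, 8764 and 9014 in WT and 9487 and 10302 in Flox, with an interval of -0.03 to 0.33. For both genes the groups did not overlap, and both intervals included 0. Neither ubiquitin receptor gene of the base passed the test. *Psmd4* had 5172, 4948 and 5700.3 in WT and 5801 and 7176 in Flox, a log2 fold change of 0.30 (SE 0.12, DESeq2 adjusted p = 0.116). *Adrm1* had 2132, 1742 and 2221 in WT and 1851 and 1865 in Flox, a log2 fold change of -0.13 (SE 0.13, DESeq2 adjusted p = 0.665), and its Flox libraries lay inside the WT range. The scaffold genes *Psmd1* and *Psmd2* had log2 fold changes of -0.07 and 0.03.

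In the lid, 1 of 8 genes rose and none fell, with a median log2 fold change of 0.01. *Psmd13* (ENSMUSG00000025487.16, chromosome 7), a structural lid subunit, had 2689.7, 2521 and 3091 normalized counts in WT2, WT3 and WT4, and 3351 and 4523 in Flox2 and Flox4. Both Flox libraries were above every WT library, with Flox4 far above Flox2. *Psmd13* had a log2 fold change of 0.51 (SE 0.15, DESeq2 adjusted p = 0.0124), and 0.27 without Flox4 (adjusted p = 0.734). *Psmd13* took 11.8%, 11.7% and 11.9% of the normalized counts of the 8 lid genes in WT and 14.5% and 17.5% in Flox. The largest decrease in the lid was that of *Psmd6*, with 1806, 1709 and 2467 in WT and 1689.8 and 1874 in Flox, a log2 fold change of -0.16 (SE 0.16, DESeq2 adjusted p = 0.654). The lid deubiquitinase *Psmd14* had a log2 fold change of -0.15 (SE 0.12, adjusted p = 0.523), with both Flox libraries below every WT library.

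The *Psmd13* gene shares 342 exonic bases, 10.1% of its exonic length, with *Sirt3* on the opposite strand, and the libraries do not record strand. *Sirt3*, which codes for a mitochondrial deacetylase, had 1038, 979 and 1100.1 normalized counts in WT and 680.1 and 365 in Flox, a log2 fold change of -0.99 (SE 0.21, DESeq2 adjusted p = 2.5e-04). The neighbours thus moved in opposite directions, and Flox4 was the extreme library for both. Reads in the shared bases cannot be assigned to one gene or the other. *Psmb7* shares 405 bases (11.8%) with *Nek6* on the opposite strand, and *Nek6* had a log2 fold change of -0.06 (DESeq2 adjusted p = 0.893). *Psmd9* and *Psmg3* also overlap another gene model, over 25.5% and 9.68% of their exonic length, and those models were not analysed here.

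The genes for building the proteasome gave 3 of the 6 increases. Among the 5 20S assembly factors, 2 rose (beside 4.2% of all genes) and none fell, and the median log2 fold change was 0.34. Both Flox libraries exceeded every WT library for 4 (all but *Psmg1*), beside 19.9% of all genes. With the trend in transcript length removed the median was 0.16 and none of the 5 passed. *Psmg3* (ENSMUSG00000029551.14, chromosome 5), a chaperone of alpha ring assembly, had 197, 209.9 and 208 normalized counts in WT2, WT3 and WT4, and 251 and 422 in Flox2 and Flox4. Flox4 was therefore far above all other libraries. Its log2 fold change was 0.71 (SE 0.23, DESeq2 adjusted p = 0.0321) and fell to 0.29 without Flox4. *Psmg4*, whose product pairs with that of *Psmg3*, had 341, 349.5 and 352 in WT and 433 and 447 in Flox, a log2 fold change of 0.34 (SE 0.15, DESeq2 adjusted p = 0.160). Its libraries agreed closely within each group, and it did not pass the test. *Pomp* (ENSMUSG00000029649.11, chromosome 5), the chaperone that brings beta subunits onto the alpha ring, had 7175, 6729.9 and 7475 in WT and 8352 and 10737 in Flox. Its log2 fold change was 0.42 (SE 0.12, DESeq2 adjusted p = 0.0158) and was 0.23 without Flox4.

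Of the 3 chaperones of the 19S base, *Psmd9* rose. *Psmd9* (ENSMUSG00000029440.16, chromosome 5) had 1154, 1169 and 1203 normalized counts in WT and 1401 and 1697 in Flox, so the WT libraries were tightly grouped and both Flox libraries lay above them. Its log2 fold change was 0.40 (SE 0.13, DESeq2 adjusted p = 0.0265), and it was 0.25 without Flox4 (adjusted p = 0.788). *Psmd10* (gankyrin) had a log2 fold change of 0.32 (SE 0.15, DESeq2 adjusted p = 0.195). *Psmd5* had 1320.1, 1355 and 1361 in WT and 1276 and 1188 in Flox, a log2 fold change of -0.13 (SE 0.11, DESeq2 adjusted p = 0.597), and both Flox libraries were below the WT libraries.

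Among the 6 activators and regulators, 1 rose. *Psme2* (ENSMUSG00000079197.11, chromosome 14) codes for a subunit of PA28, a cap induced by interferon that opens the core without ubiquitin. It had 1815, 1757 and 1583 normalized counts in WT2, WT3 and WT4, and 1948 and 2714 in Flox2 and Flox4. *Psme2* thus had a log2 fold change of 0.44 (SE 0.15, DESeq2 adjusted p = 0.0423). Flox2 was only slightly above WT2, and without Flox4 the value was 0.18. *Psme1*, for the partner subunit, had 2478, 2311 and 2385 in WT and 2600.5 and 3482 in Flox, a log2 fold change of 0.35 (SE 0.14, DESeq2 adjusted p = 0.0911). The nuclear activator *Psme3* had a log2 fold change of 0.02 and *Psme4* of 0.01. *Psmf1*, for the inhibitor PI31, had 1257, 1059.8 and 1299.9 in WT and 1153 and 1129 in Flox, a log2 fold change of -0.08 (SE 0.13, DESeq2 adjusted p = 0.823). *Psme2b*, a close copy of *Psme2*, had 99.9 to 152 normalized counts in WT and 136 and 197 in Flox. Reads that align equally to both copies would be left out of the gene counts as not unique.

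**Figure D3:**
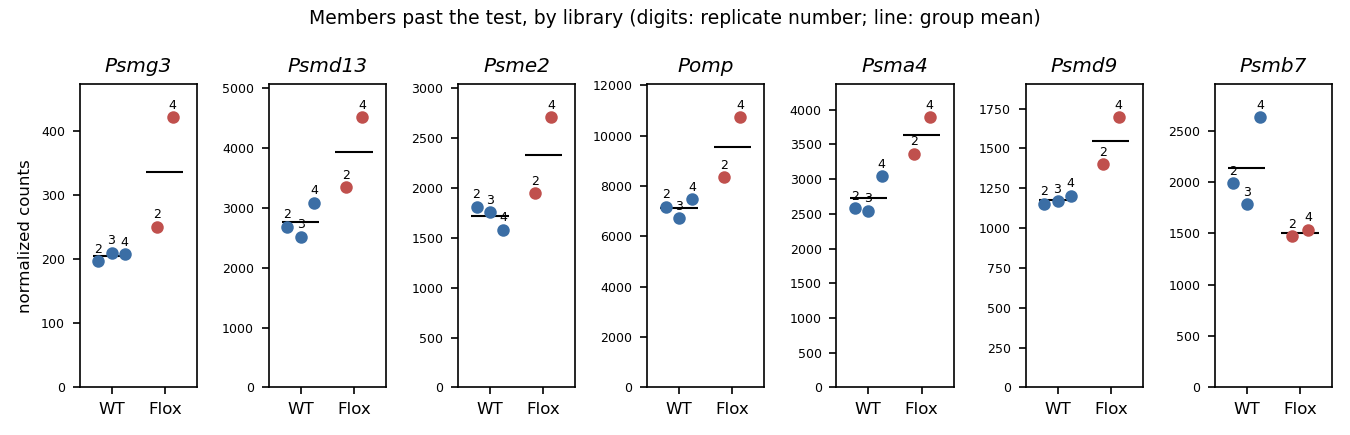
Normalized counts (linear axes from 0) of the 7 members past the test in each library, with the replicate number above each point and a line at the group mean. Flox4 is the highest library for the 6 members that rose (422 for *Psmg3*, 4523 for *Psmd13*), and for *Psmb7* both Flox libraries, at 1472 and 1537, lie below all 3 WT libraries.

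The immunoproteasome subunits, which the rule leaves out, replace the catalytic beta subunits after interferon, and 0 of 3 passed the DESeq2 test (0 at an unadjusted p under 0.05). *Psmb10*, which takes the place of *Psmb7*, had 4245, 4079 and 3350.2 normalized counts in WT and 3968 and 7040.3 in Flox, with a log2 difference of 0.50 (SE 0.33, adjusted p = 0.419, DESeq2). *Psmb8* had 1021, 834 and 624 in WT and 799 and 1683 in Flox, with a log2 difference of 0.59 (SE 0.46, adjusted p = 0.535, DESeq2). *Psmb9* had 661, 571 and 324 in WT and 489.9 and 1351 in Flox, with a log2 difference of 0.83 (SE 0.64, adjusted p = 0.529, DESeq2). For all 3 genes Flox2 lay within the WT range and Flox4 was the highest library. The call depended on the test: edgeR on all genes called all 3 higher (adjusted p = 0.0182 for *Psmb8*, 0.00471 for *Psmb9* and 0.00951 for *Psmb10*), and edgeR with the filter on low counts called 0. Without Flox2, DESeq2 called *Psmb8* (adjusted p = 2.53e-04) and *Psmb10* (adjusted p = 4.2e-06), and without Flox4 the log2 values were -0.05, -0.08 and 0.02. Per kb, the ratio of *Psmb10* to *Psmb7* was 1.89, 2.02 and 1.13 in WT and 2.39 and 4.05 in Flox, which did not overlap. The denominator, *Psmb7*, was itself lower in both Flox libraries than in every WT library, so this ratio is not separate from its fall. The ratios of *Psmb8* to *Psmb5* (0.144 to 0.254 in WT, 0.181 and 0.309 in Flox) and of *Psmb9* to *Psmb6* (0.0337 to 0.0746 in WT, 0.0491 and 0.115 in Flox) did overlap.

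The summed markers of microglia and of endothelium were higher in both Flox libraries than in every WT library. Of 12 microglial markers, 10 rose (DESeq2), and their summed level was 1886 to 3677 normalized counts in WT, 6578 in Flox2 and 14703 in Flox4. The sum of 8 endothelial markers was 116 to 253 in WT, 269 in Flox2 and 677 in Flox4, and 3 of the 7 with an adjusted p rose. The sum of 10 dopaminergic markers was 50498 to 60262 in WT and 51522 and 54274 in Flox. Of these 10, *Ret* fell (log2 fold change -0.40, DESeq2 adjusted p = 0.00291). Both Flox libraries lay below every WT library for 3 of them, *Ret*, *Slc6a3* and *Pitx3*, beside 22.5% of all genes. The Flox libraries lay above every WT library for 2, *Slc18a2* and *Ddc*, beside 19.9% of all genes. The sum of 6 oligodendrocyte markers was 104203 to 153733 in WT and 119416 and 142522 in Flox. The 6 astrocyte markers summed to 36009 to 56559 in WT and 36942 and 49519 in Flox, and 0 of these 12 glial markers passed the test (0 unadjusted, DESeq2). No list had a marker at 0 in any library. Microglia express PA28 and immunoproteasome genes, and the part of microglial RNA in the values of *Psme1*, *Psme2* and *Psmb8* to *Psmb10*, or of the other members, was not tested. In such bulk samples, fewer cells of a type and less RNA per cell cannot be told apart. *Esrrg* itself had 1643 to 1763 normalized counts in WT and 1504 and 1170.1 in Flox (log2 difference -0.35, SE 0.13, adjusted p = 0.0753 in DESeq2), a total that includes the exons that are kept and so does not measure the deletion.

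Beyond the 7 calls, more members had values above 0 than below. The log2 fold change was above 0 for 36 of 47 (76.6%), beside 49.1% of all genes, and the median was 0.12 beside -0.01. Both Flox libraries exceeded every WT library for 18 members (38.3%, beside 19.9% of all genes) and lay below every WT library for 4 (8.51%, beside 22.5%), namely *Psmb7*, *Psmc2*, *Psmd14* and *Psmd5*. At an unadjusted p under 0.05 there were 16 members higher (34.0%, beside 9.74% of all genes) and 1 lower, beside 20.3% of all genes in either direction. The 16 became 7 without WT2, 8 without WT3, 9 with the replicate number as a block and 5 with the trend in transcript length removed. The number stayed at 16 without WT4. The share of all genes at that unadjusted p in these fits is not given here, so the counts have no background beside them. The median depended on single libraries, being 0.02 without Flox4, 0.05 without WT3 and 0.20 without Flox2.

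Members also varied together within groups. Flox4 was above Flox2 for 42 of 47 members (89.4%, beside 49.2% of all genes), and WT4 was the highest WT library for 38 (80.9%, beside 40.4%, or 51.0% of genes with a mean of at least 1000 normalized counts). The median member, on the log2 scale relative to the WT mean, was -0.03 in WT2, -0.07 in WT3, 0.09 in WT4, 0.02 in Flox2 and 0.20 in Flox4, while the median of all genes stayed between -0.01 and 0.00. The difference between the Flox libraries was thus larger than that between the Flox2 median and the WT medians, and WT4 was above Flox2. All 14 ring subunits followed both orders, with WT4 the highest WT library and Flox4 above Flox2. Among the 6 activators and regulators, by contrast, WT4 was the highest WT library for 1. All 6 astrocyte and all 6 oligodendrocyte markers also followed both orders. Of the 10 dopaminergic markers, 8 had WT4 as the highest WT library and 5 had Flox4 above Flox2. For the 12 microglial markers these counts were 0 and 12. The part of glial RNA in the order of the members was not tested.

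**Figure D4:**
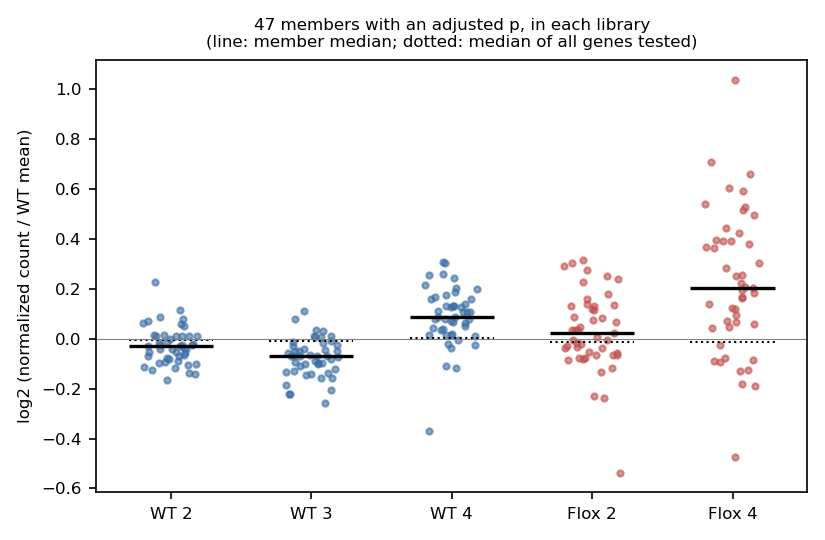
Log2 ratio of each library's normalized count to the WT mean for the 47 members (points), with their median (solid line) and the median of all genes tested (dotted line). The member median is 0.09 in WT4, 0.02 in Flox2 and 0.20 in Flox4, while the median of all genes stays near 0 in each library.

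Most proteasome transcripts are short, with a median of 1440 bases against 2910 for all genes tested, and fold changes went with length in these libraries. Spearman's rho between log2 fold change and transcript length was -0.42 over the 47 members and -0.24 over 15705 genes, a description across genes that share the same 5 libraries. The 24 members of at most 1440 bases had a median log2 fold change of 0.25, with 3 higher and 1 lower past the test. All 2656 genes in that length range had a median of 0.19, and 73.0% of them were above 0 and 12.1% past the test. The 23 longer members had a median of 0.05 with 3 higher, beside -0.04 and 7.46% past the test for the 13049 longer genes. In both length ranges the median of the members was above that of all genes.

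When the trend with length was removed from each library before the DESeq2 test, 2 members were higher and 1 was lower, beside 6.34% of all genes in either direction, in place of 6 and 1. *Psmb7* had a log2 fold change of -0.64 (adjusted p = 0.0014), *Psmd13* of 0.48 (adjusted p = 0.0182) and *Psmd9* of 0.42 (adjusted p = 0.0190). *Pomp* (0.34, adjusted p = 0.0541), *Psma4* (0.27, adjusted p = 0.124), *Psmg3* (0.53, adjusted p = 0.152) and *Psme2* (0.27, adjusted p = 0.322) no longer passed. The median of the members went from 0.12 to 0.05. *Psmb7* and *Psma4* have transcripts of almost the same length (1160 and 1165 bases) and went in opposite directions. The part of length in the values of single genes was not tested beyond this fit. A trend with GC content, removed in the same way, left the same 7 calls.

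**Figure D5:**
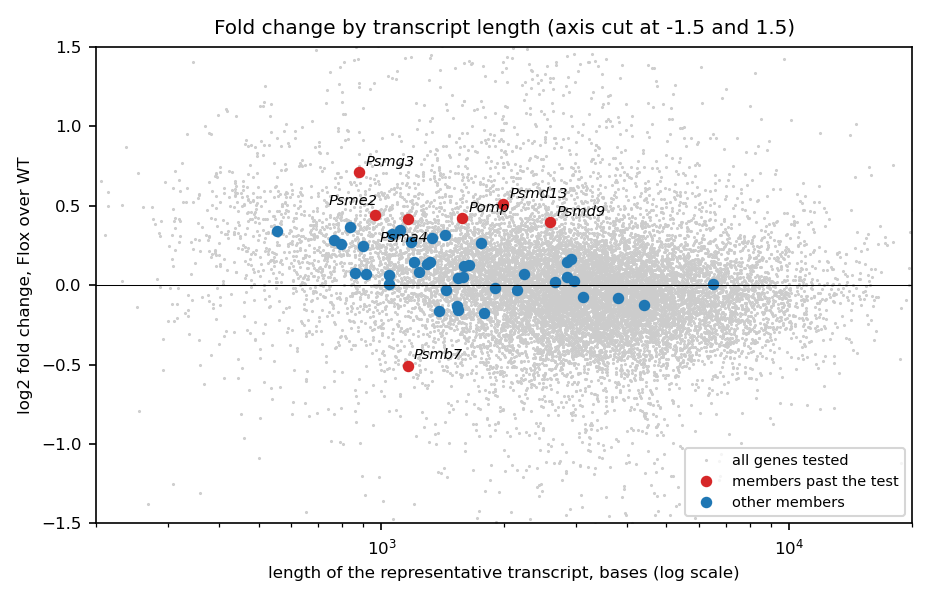
Log2 fold change of Esrrg Flox over Esrrg WT against the length of the representative transcript (log axis) for all genes tested (grey), the 7 members past the test (red) and the other members (blue), with the y axis limited to -1.5 and 1.5. Short genes lie above 0 more often than long ones, and *Psmb7* at -0.51 lies below 0 while 73.0% of the genes of at most 1440 bases lie above it.

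Among the other genes of the ubiquitin and proteasome pathway, 27 were matched in the table, and 3 rose (DESeq2), beside 4.2% of all genes. Calls in the lower direction among the 27 are not reported here. *Sem1*, a small lid subunit that the symbol rule does not take, had 3366, 3654 and 3743 normalized counts in WT and 4518 and 5323 in Flox, a log2 fold change of 0.46 (SE 0.11, DESeq2 adjusted p = 0.00287). *Akirin2*, which brings proteasomes into the nucleus, had 1519, 1815 and 1702 in WT and 2046 and 2322 in Flox, a log2 fold change of 0.38 (SE 0.12, DESeq2 adjusted p = 0.0333). *Rps27a*, which codes for ubiquitin fused to a ribosomal protein, had 9555, 10099.9 and 9528 in WT and 13728 and 14438 in Flox, a log2 fold change of 0.53 (SE 0.09, DESeq2 adjusted p = 3.0e-06). In each of the 3 genes both Flox libraries stood above every WT library, beside 19.9% of all genes. With the length trend removed, *Sem1* (DESeq2 adjusted p = 0.0173) and *Rps27a* (0.00573) passed and *Akirin2* (0.174) did not. Without WT2, *Rps27a* passed (DESeq2 adjusted p = 0.00658), and *Sem1* (0.106) and *Akirin2* (0.333) did not. Without Flox4 the log2 fold changes were 0.33 for *Sem1*, 0.28 for *Akirin2* and 0.49 for *Rps27a*. *Ubb*, a polyubiquitin gene, had a log2 fold change of 0.16 (SE 0.13, DESeq2 adjusted p = 0.551). *Nfe2l1*, for NRF1, had a log2 fold change of -0.21 (SE 0.10, DESeq2 adjusted p = 0.171), and *Nfe2l2*, for the related factor NRF2, of 0.41 (SE 0.19, DESeq2 adjusted p = 0.182).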

How the data were processed

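The authors deposited raw read counts per gene for 5 libraries, made without a strand-specific kit. The submitters' processing notes name Trim Galore 0.6.6, STAR 2.7.9a, HTSeq 0.11.3 and build GRCm39, whereas the study's methods name GRCm38, and the table holds no coordinates. Libraries held 20635855 to 23105058 assigned counts, so 0 counts allow up to 0.130 to 0.145 CPM (3 counts; PCR duplicates carry no molecular identifiers, so this covers counting error alone). The 5 summary lines were left out of library sizes (no feature 3.18% to 4.45%, ambiguous 5.62% to 5.78%, not unique 3.60% to 4.23% of reads). Symbols, lengths and overlaps came from GENCODE M21, an older release than the table's for nearly all IDs: 52147 of 53700 IDs matched, and the others held at most 1.20% of counts.

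The 29407 genes with at least 1 count were fitted with DESeq2 1.42.0 in R 4.3.3 (default size factors, two-sided Wald test, independent filtering at 0.05, Benjamini-Hochberg adjustment), the study's tool, and 15724 received an adjusted p. A gene rose or fell at an adjusted p under 0.05, and 95% intervals are 1.96 SE either side. Length is that of the principal transcript. Alternatives were edgeR 4.0.16, TMM library sizes, filters, removal of a length or GC trend (loess, span 0.5), a replicate block and each library left out. The scripts were tested on simulated data. The members, gene lists and roles were chosen with earlier results of these data known, so no test was run over a list. Values per library are given for *Esrrg*, for members past the test, for the largest increase and decrease in each group of members, for *Psmb5*, *Psmb6*, *Psmb7*, *Pomp* and *Adrm1*, for pathway genes past the test and for the immunoproteasome, except that some pathway genes are not reported here. *Psma8*, *Psmb11*, *Psmg4*, *Psme1*, *Psme2b* and the overlap partners *Sirt3* and *Nek6* were added after their values were seen.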

Additional observations from a re-analysis of the deposited data

How the results depend on the processing

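The 7 members past the test kept their direction in all 13 alternatives, but the calls did not. Calls among all genes also changed. They went from 1297 of 15724 genes to 901 of 29407 without independent filtering and 997 of 15724 with the length trend removed. With the replicate block they were 476 of 11733. The edgeR test called 1799 of 29407 on all genes and 275 of 16711 past the filter on low counts. They were 1314 of 15724 with TMM library sizes, 1318 of 15724 with the GC trend removed and 1371 of 15415 with the low-count filter. The number of members higher went from 6 to 4 without independent filtering, to 2 with the length trend removed and to 1 with the replicate block. It went to 0 with edgeR on genes past the filter on low counts, an alternative added after seeing the data, which also gave 0 lower. It ran from 0 to 14 with single libraries left out, and the number lower from 0 to 1. With a fold change of at least 1.5 the count of 1 went to 0 without independent filtering and with the filtered edgeR test, and ran from 0 to 4 with single libraries left out. The median log2 fold change of 0.1233 was 0.0177 without Flox4 and 0.2047 without Flox2, and 0.05 with the length trend removed or with the replicate block. TMM library sizes, the GC trend, the low-count filter in DESeq2 and edgeR on all genes kept the same 7 genes. With the length trend removed and with the replicate block, the 1 member at a fold change of at least 1.5 was *Psmb7* (log2 fold change -0.64 and -0.61), and *Psmg3* did not pass. The causes of these differences were not tested.

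The replicate numbers 2 and 4 occur in both groups, giving 2 pairs, and the labels do not say that a number marks a shared litter or batch. Deviations from the group means correlated at 0.11 for number 2 and 0.0965 for number 4. With 2 Flox libraries, the deviations of Flox2 and Flox4 are exact opposites. WT2 with Flox4 therefore gave -0.11 and WT4 with Flox2 gave -0.0965, and these values cannot show whether a number marks a pair. With the replicate block, *Psmb7* (-0.61, DESeq2 adjusted p = 0.00815) and *Psmd13* (0.43, adjusted p = 0.0454) passed. Of the 42 members not past the test, 18 had the other sign in at least 1 alternative and 8 passed in at least 1. Depth limits the members near 0 counts, *Psma8* and *Psmb11*, and no fit at reduced depth was run.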
